A study of Mus musculus with 6 samples.

Results

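The 30 transcripts described here are protein-coding rows of low abundance that stayed below 1 FPKM in every oocyte library made without Mtor. They were chosen by their measured FPKM (fragments per kilobase of transcript, scaled to library size), from a table of 516 rows of which 452 are annotated as protein-coding only. That table holds only rows already selected for a difference between the groups. Shares over its rows, given below for comparison, are therefore not shares over all genes of the oocyte. A row was taken when each of the 3 Mtor CKO libraries was below 1 FPKM, at least 2 of the 3 WT libraries were at 1 FPKM or more and the WT mean was below 100 FPKM. A set of 31 rows met these bounds, and Plek, at 1.14, 13.4 and 36.7 FPKM in WT, was left out by name. Depdc5 and Padi4 were left out by name too, but did not meet the bounds. The difference between the genotypes therefore chose the 30 transcripts and is given below as a description, not as a test result.

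The libraries came from ovulated metaphase II oocytes of C57BL/6 females at postnatal day 24, after PMSG and hCG injections, with 5 oocytes in each library. In the Mtor CKO group (n = 3 libraries) the gene had been removed by Zp3-Cre, a recombinase made in growing oocytes, so the deletion is limited to the oocyte and to the time after that promoter is switched on. The other group was wild type (n = 3 libraries), and the labels do not say whether these mice carried a floxed allele or Cre, nor whether the libraries of a group came from separate mice. The spread between libraries may thus be partly technical.

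MTOR is a kinase that couples nutrients and growth signals to protein synthesis, ribosome production and autophagy, in part through a cap-proximal pyrimidine tract on the messenger RNAs it controls. A fully grown oocyte stops transcribing before it resumes meiosis, so a transcript found in a metaphase II egg was mostly made earlier and stored. Its level reflects past synthesis as well as later decay, and in whole-oocyte RNA a change in RNA per cell and a change in the number of cells that hold it cannot be told apart.

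The working description of these transcripts as nearly absent without Mtor holds for few of them, since they were scarce in WT as well. WT means ran from 0.994 to 2.71 FPKM with a median of 1.67, and Mtor CKO means from 0.117 to 0.736 FPKM with a median of 0.430. The level left in Mtor CKO was between 5.27% and 49.5% of the WT mean, with a median of 24.7%. A reading of exactly 0 was listed in 2 of the 90 Mtor CKO values, for Tnfrsf21 in replicate 3 and D230025D16Rik in replicate 1. The other Mtor CKO values were above 0, and 7 transcripts stayed below 0.5 FPKM in each Mtor CKO library. Every WT library was above every Mtor CKO library in 20 of the 30 (66.7%), where 57.4% of all 516 rows had that order. It was found in 14 of 24 other protein-coding rows lower in Mtor CKO with a WT mean in the same range (58.3%) and in 241 of the 320 such rows at any level (75.3%). The rule used these same values, so nothing is read from this count, for the 30 or for any class of them below. The 24 rows do not include Plek, Depdc5 or Padi4, which were left out by name. Of these, Depdc5 had a WT mean in the range of the 30 and was lower in Mtor CKO. It was at 0.746, 3.70 and 0.123 FPKM in WT and 0.0702 to 0.210 FPKM in Mtor CKO, and the 320 rows include it.

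**Figure D1:**
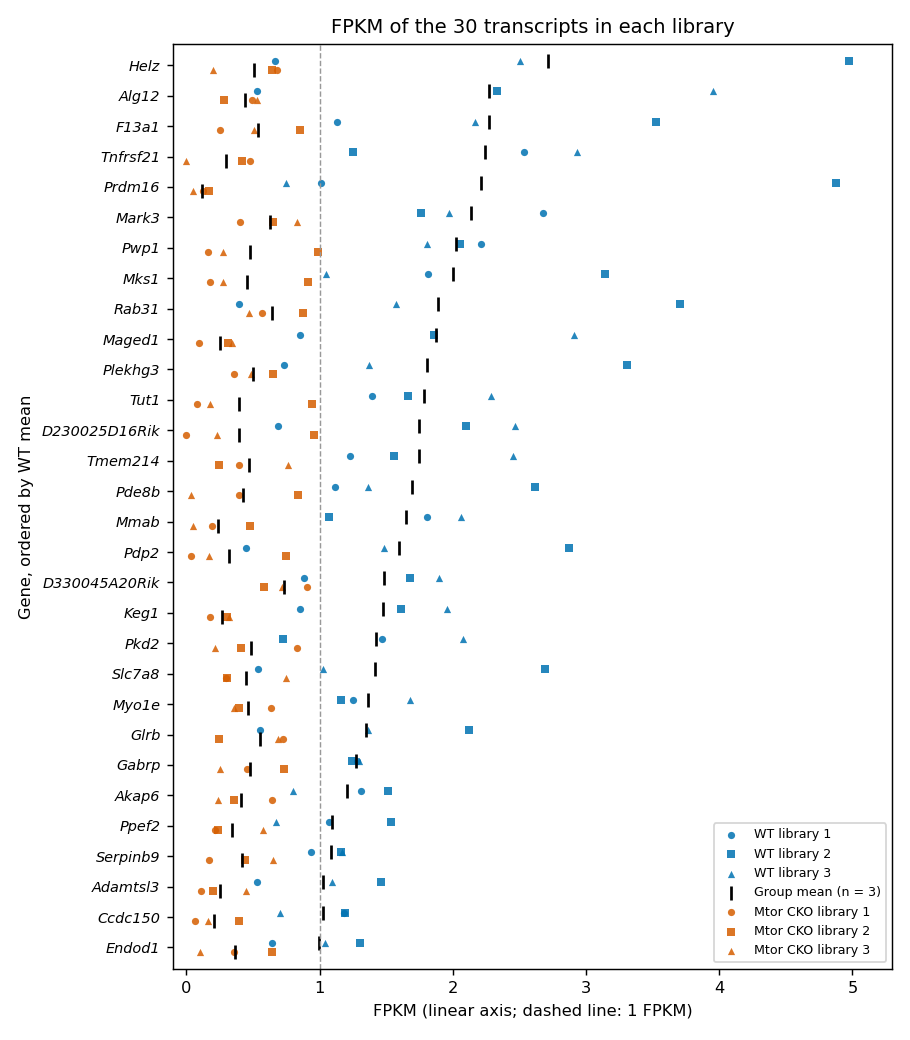
FPKM of each of the 30 transcripts (rows, ordered by WT mean) in the 3 WT libraries (blue) and 3 Mtor CKO libraries (orange) on a linear axis, with black ticks for group means and a dashed line at the 1 FPKM bound. WT values reach 4.98 FPKM for Helz, and in 10 of the 30 rows the lowest WT point lies below the highest Mtor CKO point.

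The promoters of 3 of these genes are printed here to show the annotated start regions that were searched for motifs: the gene with the largest ratio between the groups (Prdm16), the next largest (Tnfrsf21) and the one with the most CCAAT boxes (Mmab). Each covers 250 bases before and 50 bases after the annotated start, 5′ to 3′ on the gene's strand, from RefSeq on GRCm38.p6. The windows are chr4:154636824-154637123, minus strand, for Prdm16, chr17:43016305-43016604, plus strand, for Tnfrsf21, and chr5:114443978-114444277, minus strand, for Mmab. Capitals mark matches, on either strand, to the letters TATAAA (the TATA box), to CCAAT, to GGGCGG (the GC box) and to CACGTG (an E-box), which do not overlap each other in these sequences.
Prdm16: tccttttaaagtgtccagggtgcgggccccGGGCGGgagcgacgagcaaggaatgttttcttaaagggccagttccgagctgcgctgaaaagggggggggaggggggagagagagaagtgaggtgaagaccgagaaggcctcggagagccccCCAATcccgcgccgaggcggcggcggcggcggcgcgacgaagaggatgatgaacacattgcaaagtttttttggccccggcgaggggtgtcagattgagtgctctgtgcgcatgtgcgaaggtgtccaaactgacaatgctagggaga
Tnfrsf21: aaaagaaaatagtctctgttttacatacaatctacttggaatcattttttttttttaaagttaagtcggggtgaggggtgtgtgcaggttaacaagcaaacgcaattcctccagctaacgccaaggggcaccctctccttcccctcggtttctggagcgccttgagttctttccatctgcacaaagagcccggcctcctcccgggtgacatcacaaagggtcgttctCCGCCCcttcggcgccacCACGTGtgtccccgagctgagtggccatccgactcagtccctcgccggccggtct
Mmab: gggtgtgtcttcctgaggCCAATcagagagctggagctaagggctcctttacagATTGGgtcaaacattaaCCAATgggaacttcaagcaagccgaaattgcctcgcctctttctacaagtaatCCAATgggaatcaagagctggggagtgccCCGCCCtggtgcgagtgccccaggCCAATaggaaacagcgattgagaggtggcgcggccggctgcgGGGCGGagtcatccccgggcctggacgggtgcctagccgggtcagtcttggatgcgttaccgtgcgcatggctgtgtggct

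A promoter was found for 27 of the 30 genes, and the shares that hold each motif are given beside those of the rest of the table, with no test. The GC box occurred in 16 promoters (59.3%), against 59.9% of 327 other protein-coding rows of the table and 35.7% of all 32851 promoters. The CCAAT box occurred in 12 (44.4%), against 40.1% and 37.4%. The Mmab promoter holds 5 CCAAT boxes, and that of Prdm16 holds 1. The E-box, whose letters form the core of the sites bound by the MTOR-regulated factor TFEB, was present in 3 (11.1%), against 12.2% and 7.15%: Tnfrsf21, Pdp2 and D330045A20Rik. TATAAA was in 0 of the 27, against 10.1% and 13.6%. The promoters held a median of 17 CG dinucleotides, against 20 in the other protein-coding rows and 7 in all promoters. A match is a description of letters only, and no match says nothing about binding outside this window.

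Because messages under MTOR control often begin with a C and a run of pyrimidines, the annotated start was read as well. A C followed by at least 4 pyrimidines stood at the start of 1 of the 27 (3.70%), against 1.53% of the other protein-coding rows and 2.51% of all promoters. That gene was Serpinb9, whose first 15 bases are given with the pyrimidine run in capitals.
Serpinb9: CTCTTCCTgctgtgg
Its annotated start, like the others, is that of RefSeq and was not measured in these oocytes. The Serpinb9 window, chromosome 13, 33004291 to 33004590, lies inside the interval of its row, which begins at 33003250. The measured row thus takes in sequence before that start. The Helz window also lies inside the interval of its row, and the Ppef2 window lies outside it.

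The 4 transcripts whose proteins act on RNA and chromatin, Helz, Prdm16, Pwp1 and Tut1, had ratios of WT to Mtor CKO means from 4.23 to 19.0. Prdm16, a zinc-finger transcription factor known from brown fat and blood stem cells (chromosome 4, 154316125 to 154636873, mm10), stood at 1.01, 4.88 and 0.750 FPKM in WT libraries 1 to 3. In Mtor CKO it was at 0.128, 0.171 and 0.0512 FPKM, so the groups did not overlap. The means of 2.21 ± 2.31 FPKM and 0.117 ± 0.0605 FPKM (SD, n = 3 each) differ 19.0-fold, the largest ratio of the 30, and 7.53-fold without WT replicate 2. The Prdm16 interval takes in B230104I21Rik on the other strand, and its nearest end lies 5.76 Mb from Mtor on the same chromosome.

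Helz, an RNA helicase with a zinc-finger domain (chromosome 11, 107531757 to 107693828), had the highest WT mean of the 30, 2.71 ± 2.16 FPKM (SD, n = 3). Its WT libraries were uneven, at 0.664, 4.98 and 2.50 FPKM, and its Mtor CKO libraries were at 0.684, 0.642 and 0.197 FPKM. WT replicate 1 thus lay within the Mtor CKO range, and the 5.35-fold ratio became 3.12 without WT replicate 2.

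Tut1 and Pwp1 were more even in WT. Tut1, the enzyme that adds uridines to U6 spliceosomal RNA (chromosome 19, 8953850 to 8966207), was at 1.40, 1.66 and 2.29 FPKM in WT and at 0.0790, 0.940 and 0.178 FPKM in Mtor CKO. Pwp1, a WD-repeat protein known in Drosophila to act below TOR in the making of ribosomal RNA (chromosome 10, 85871831 to 85889096), was at 2.22, 2.06 and 1.80 FPKM in WT and at 0.165, 0.991 and 0.279 FPKM in Mtor CKO. In both genes every WT library was above every Mtor CKO library, and Mtor CKO replicate 2 carried most of the Mtor CKO signal. Their ratios of 4.47 and 4.23 became 13.9 and 9.12 without that library.

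The receptors, channels and transporters comprised 5 transcripts with ratios from 2.43 to 7.47. Tnfrsf21, the death receptor DR6 (chromosome 17, 43016555 to 43089188), was at 2.54, 1.26 and 2.93 FPKM in WT and at 0.479, 0.422 and 0 FPKM in Mtor CKO. The means, 2.24 ± 0.878 FPKM and 0.300 ± 0.261 FPKM (SD, n = 3 each), lay 7.47-fold apart with no overlap. Gabrp, the pi subunit of the GABA-A receptor, was the most even of all 30 in WT, at 1.28, 1.24 and 1.30 FPKM. Its Mtor CKO libraries were at 0.454, 0.732 and 0.256 FPKM, each below every WT library.

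The other 3 of this class overlapped between the groups. Slc7a8, the neutral amino acid exchanger LAT2 (chromosome 14, 54722216 to 54781886), was at 0.538, 2.69 and 1.02 FPKM in WT and at 0.295, 0.306 and 0.752 FPKM in Mtor CKO, and its ratio of 3.14 fell to 1.73 without WT replicate 2 and was 4.71 without Mtor CKO replicate 3. Pkd2, the polycystin-2 cation channel, was at 1.47, 0.724 and 2.08 FPKM against 0.834, 0.411 and 0.217 FPKM, with a ratio of 2.92 that was 4.54 without Mtor CKO replicate 1. Glrb, the beta subunit of the glycine receptor, was at 0.556, 2.12 and 1.37 FPKM against 0.729, 0.247 and 0.686 FPKM. In Slc7a8 and Glrb it was WT replicate 1 that lay among the Mtor CKO values, and in Pkd2 it was WT replicate 2.

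Intracellular signalling proteins were encoded by 6 transcripts, with ratios from 2.94 to 4.01. Mark3, a kinase that phosphorylates microtubule-associated proteins (chromosome 12, 111574510 to 111656227), was at 2.67, 1.77 and 1.97 FPKM in WT and 0.401, 0.649 and 0.830 FPKM in Mtor CKO. Its lowest WT library exceeded its highest Mtor CKO library by 0.935 FPKM, the widest such gap of the 30. Cyclic AMP, which holds the oocyte in meiotic arrest before ovulation, is the substrate of the phosphodiesterase Pde8b. Pde8b was at 1.11, 2.62 and 1.36 FPKM in WT and 0.398, 0.837 and 0.0341 FPKM in Mtor CKO, a ratio of 4.01 that became 7.86 without Mtor CKO replicate 2. Akap6, an anchor for the cyclic AMP-dependent kinase, was at 1.31, 1.51 and 0.803 FPKM and 0.644, 0.355 and 0.236 FPKM respectively.

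Ppef2, a calcium-binding phosphatase known from photoreceptors, was at 1.07, 1.53 and 0.670 FPKM in WT against 0.214, 0.241 and 0.574 FPKM in Mtor CKO. Its groups were separated by 0.0954 FPKM, and its ratio of 3.18 was 4.80 without Mtor CKO replicate 3. Plekhg3 was at 0.732, 3.31 and 1.37 FPKM against 0.357, 0.652 and 0.489 FPKM. Rab31, a GTPase of membrane trafficking, was at 0.399, 3.70 and 1.58 FPKM against 0.570, 0.878 and 0.473 FPKM, with WT replicate 1 below all Mtor CKO libraries. The ratios of Plekhg3 and Rab31, 3.61 and 2.96, rested on WT replicate 2 and were 2.11 and 1.54 without it.

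Among the 4 enzymes of metabolism and glycosylation, ratios ran from 5.02 to 6.82. Mmab, the mitochondrial enzyme that makes adenosylcobalamin (chromosome 5, 114431034 to 114444059), was at 1.80, 1.07 and 2.06 FPKM in WT and 0.193, 0.481 and 0.0496 FPKM in Mtor CKO, and its ratio of 6.82 was 13.6 without Mtor CKO replicate 2. Keg1, named as a kidney-expressed gene and annotated to the mitochondrion in the table, was at 0.857, 1.62 and 1.96 FPKM against 0.177, 0.308 and 0.318 FPKM. Neither of these overlapped between the groups.
Alg12, a mannosyltransferase of N-glycan assembly, was at 0.528, 2.33 and 3.96 FPKM against 0.492, 0.285 and 0.534 FPKM, and its ratio of 5.20 was 3.27 without WT replicate 3. Pdp2, the phosphatase that activates pyruvate dehydrogenase, was at 0.445, 2.87 and 1.48 FPKM against 0.0340, 0.750 and 0.172 FPKM. The ratio of Pdp2, 5.02, was 15.5 without Mtor CKO replicate 2 and 3.03 without WT replicate 2, and both genes had WT replicate 1 inside the Mtor CKO range.

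The class I myosin Myo1e and the ciliary protein Mks1 were each separated between the groups. Myo1e was at 1.25, 1.16 and 1.68 FPKM in WT and 0.634, 0.399 and 0.360 FPKM in Mtor CKO. Mks1, part of the transition zone at the base of the cilium, was at 1.81, 3.14 and 1.05 FPKM and 0.181, 0.912 and 0.272 FPKM, and its ratio of 4.40 was 8.82 without Mtor CKO replicate 2. The lowest WT library of Mks1 was 0.134 FPKM above its highest Mtor CKO library.

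F13a1, Adamtsl3 and Serpinb9, which encode secreted proteins or a protease inhibitor, were separated too. F13a1, the transglutaminase subunit of coagulation factor XIII (chromosome 13, 36867178 to 37050244), was at 1.13, 3.52 and 2.16 FPKM in WT and 0.251, 0.853 and 0.507 FPKM in Mtor CKO, with means of 2.27 ± 1.20 FPKM and 0.537 ± 0.302 FPKM (SD, n = 3 each). Serpinb9, an inhibitor of granzyme B, was at 0.933, 1.16 and 1.17 FPKM and 0.169, 0.439 and 0.648 FPKM. Adamtsl3, an extracellular matrix glycoprotein, was at 0.531, 1.46 and 1.10 FPKM and 0.109, 0.203 and 0.445 FPKM, a ratio of 4.08 that was 6.59 without Mtor CKO replicate 3. The gap between the groups was 0.277 FPKM for F13a1, 0.285 FPKM for Serpinb9 and 0.0863 FPKM for Adamtsl3.

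The remaining 6 transcripts encode proteins of other or little-known function, with ratios from 2.02 to 7.40. Maged1, a MAGE-family adaptor protein on the X chromosome, was at 0.852, 1.86 and 2.91 FPKM in WT and 0.0990, 0.317 and 0.345 FPKM in Mtor CKO, the third largest ratio of the 30 (7.40). Tmem214, a membrane protein of the endoplasmic reticulum, was at 1.23, 1.56 and 2.45 FPKM and 0.398, 0.246 and 0.765 FPKM. Ccdc150, a coiled-coil protein, was at 1.19, 1.20 and 0.701 FPKM and 0.0668, 0.398 and 0.165 FPKM. The groups did not overlap in these 3, and the ratio of Ccdc150, 4.89, was 8.85 without Mtor CKO replicate 2.
They did overlap in the other 3. Endod1 was at 0.644, 1.30 and 1.04 FPKM and 0.360, 0.647 and 0.102 FPKM, and D230025D16Rik ran from 0.685 to 2.47 FPKM in WT and from 0 to 0.962 FPKM in Mtor CKO. D330045A20Rik, which RefSeq lists as Radx, was at 0.883, 1.68 and 1.90 FPKM and 0.907, 0.585 and 0.715 FPKM. It had the smallest ratio of the 30, 2.02, and the highest Mtor CKO mean. Without Mtor CKO replicate 2 the ratios of Endod1 and D230025D16Rik, 2.69 and 4.41, became 4.31 and 15.3. The D230025D16Rik interval also takes in the gene B3gnt9.

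**Figure D2:**
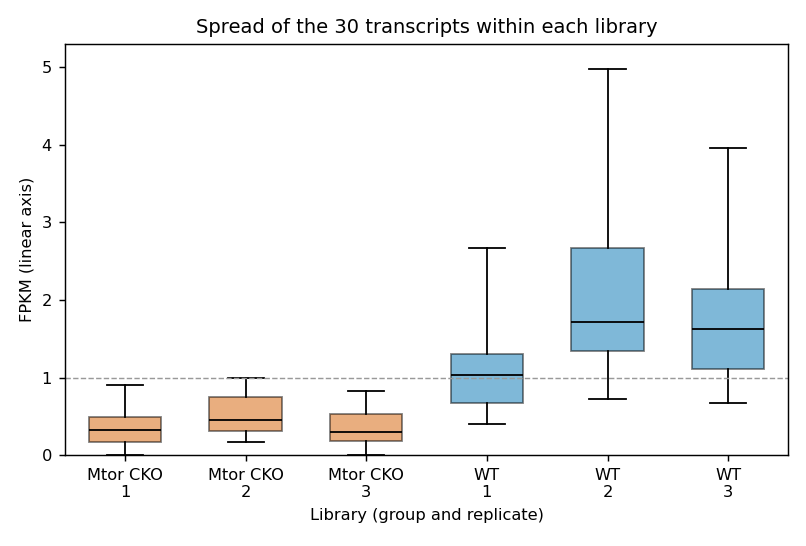
Boxplots of the FPKM of the 30 transcripts in each library on a linear axis (line, median; box, quartiles; whiskers, lowest and highest transcript; dashed line, 1 FPKM). Medians are 0.326, 0.460 and 0.299 FPKM in Mtor CKO replicates 1 to 3 and 1.04, 1.72 and 1.63 FPKM in WT replicates 1 to 3.

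Within WT the 30 transcripts did not share a single level across libraries. Their summed FPKM was 33.7, 64.1 and 51.9 in WT replicates 1 to 3, against 10.5, 16.3 and 10.9 in Mtor CKO replicates 1 to 3. WT replicate 1 was the lowest WT library for 18 of the 30 and lay below 1 FPKM for 14 of them, where replicate 2 did so for 1 and replicate 3 for 4. WT replicate 1 was also the lowest for 14 of the 24 rows of similar WT level and 199 of the 320 other lower rows. All 3 WT libraries reached 1 FPKM in 11 of the 30 transcripts, and in the other 19 exactly 2 did. The highest WT library was replicate 2 for 15, replicate 3 for 13 (43.3%) and replicate 1 for 2 (6.67%). Among the 320 other protein-coding rows lower in Mtor CKO the shares for replicates 2, 3 and 1 were 59.4%, 29.1% and 11.6%, so WT replicate 1 was seldom the highest library there either.

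The ratio of the highest to the lowest WT library had a median of 2.34, from 1.04 for Gabrp to 9.29 for Rab31. It was 1.85 over 23 of the 24 other protein-coding rows that were lower in Mtor CKO with a WT mean in the same range (the remaining one had a WT library at 0), and 1.75 over 319 of the 320 rows at any level. WT replicate 2 was more than 2 times each other WT library in 4 transcripts, Prdm16, Plekhg3, Rab31 and Slc7a8. On the Mtor CKO side replicate 2 was the highest library for 14 of the 30 (46.7%), and for 65.0% of the other lower rows. When each library was left out in turn, Mtor CKO replicate 2 moved the ratio of the means by more than 1.5 times for 9 transcripts and WT replicate 2 for 6.

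The ratio of WT to Mtor CKO means had a median of 4.04 in the 30, 2.62 in the 24 rows of similar WT level and 2.45 in the 320, and the bound on Mtor CKO favours high ratios. Rows with an Mtor CKO mean of 0 have no such ratio and are not in these medians. Sgce and Vcan, which belong to the 24 and to the 320, were left out of them for that reason. Under the bound of 1 FPKM the closest rows inside were Tut1, D230025D16Rik and Pwp1, with highest Mtor CKO libraries of 0.940, 0.962 and 0.991 FPKM. The closest outside were Mau2, Kdm4a and 5830473C10Rik at 1.01, 1.04 and 1.05 FPKM.

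**Figure D3:**
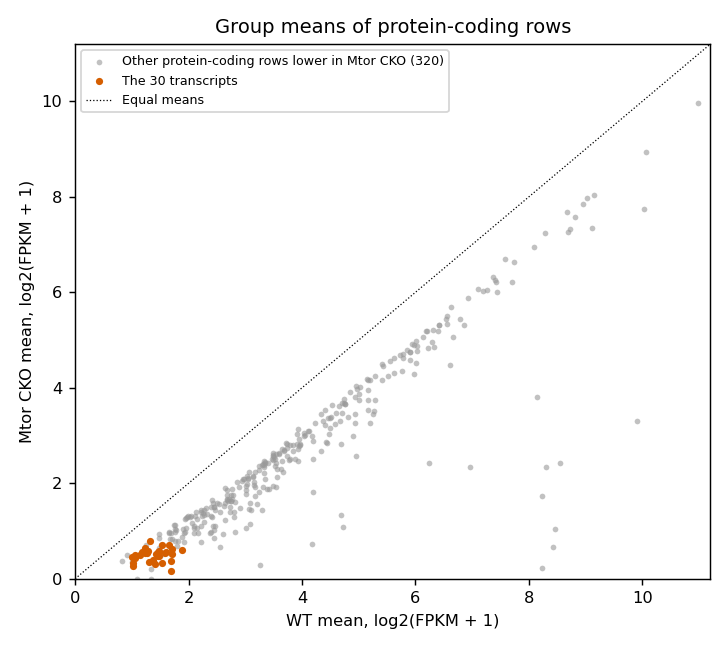
Mean of the 3 Mtor CKO libraries against the mean of the 3 WT libraries, both as log2(FPKM + 1), for the 30 transcripts (orange) and the 320 other protein-coding rows lower in Mtor CKO (grey), with a dotted line of equal means. The 30 lie at the low end of the same band as the other rows, with WT means of 0.994 to 2.71 FPKM.

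Limma was fitted to log2(FPKM + 1) for the 471 rows with at least 1 FPKM in at least 3 libraries, with Benjamini-Hochberg adjustment over those rows. All of these rows had already been selected for a difference between the groups. The adjusted p-values therefore do not control a false discovery rate, and the counts of calls are descriptions. Of the 30 transcripts 11 passed that filter, and they did so through WT alone, while 19 were not tested. The 11 had an adjusted p of at most 0.05 by limma, where 60.3% of the rows tested were called lower in Mtor CKO. Nothing is read from this, since the same contrast chose the transcripts. Log2 differences (Mtor CKO minus WT, a scale that understates changes of scarce transcripts) were largest for Tnfrsf21, -1.30 (SE 0.29, adjusted p = 0.0362) by limma, and smallest for Gabrp, -0.63 (SE 0.21, adjusted p = 0.0392) by limma. Tut1, Pwp1, Mmab, Mks1, F13a1, Mark3, Pde8b, Tmem214 and Myo1e lay between them, with adjusted p-values from 0.0362 to 0.0375. The median of the 471 rows was -1.03 and that of the 11 was -1.02, so relative to the median row the 11 lay between -0.27 and 0.39, and 5 of them below it.

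These calls depended on the scaling and on single libraries. With libraries scaled to a common median, which moved the median row by 0.76 on the log2 scale, 14 of the 30 transcripts were tested. Limma called 0 of these 14 and gave 2 an unadjusted p of at most 0.05, as it did 136 of the 478 rows tested. Limma then called 91 rows in all, 3 lower and 88 higher, against 284 lower and 63 higher as fitted. The medians made equal were those of selected rows, 3.77 to 5.40 FPKM in Mtor CKO and 7.37 to 9.18 FPKM in WT. Making them equal takes out a difference shared by most rows by construction, so nothing is read from the fall in lower calls. Without Mtor CKO replicate 1, Mtor CKO replicate 3, WT replicate 2 or WT replicate 3, limma called 4, 5, 3 and 4 rows of the whole table and 0 of the 30. At an unadjusted p of at most 0.05, limma had 11 and 9 of the 11 without Mtor CKO replicate 1 and 3. Over all rows tested in those settings, limma had 226 of 466 and 228 of 465 at that p. Nothing is read from this either, since the same contrast chose the transcripts. Without a WT library 0 of the 30 passed the filter, by its construction. By the authors' deposited table, a total of 7 of the 30 had a q-value of at most 0.05, where 39.9% of its 516 rows had one and were lower: Prdm16, Tnfrsf21, Maged1, F13a1, Akap6, Pkd2 and Mark3. The log2 folds of the 30 in the authors' deposited table ran from -4.05 for Prdm16 to -1.17 for D330045A20Rik.

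**Figure D4:**
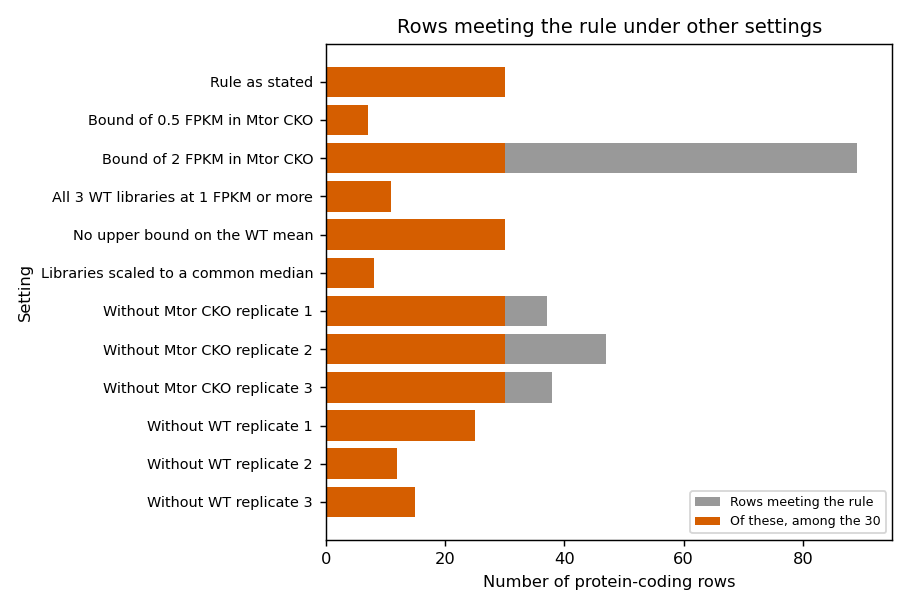
Number of protein-coding rows that meet the rule as stated and under other settings (whole bar), with those among the 30 in orange and further rows in grey. A bound of 0.5 FPKM keeps 7 rows, a bound of 2 FPKM takes 89, and scaling the libraries to a common median keeps 8.

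The rule itself was sensitive to the same choices, as the plot of rows under other settings shows. Another 13 protein-coding rows were below 1 FPKM in every Mtor CKO library without being among the 30: Plek, 10 rows in which a single WT library reached 1 FPKM, and 2 in which none did. Some of the 10 reached a high level in that library alone, such as Tex9 at 1025 FPKM in WT replicate 2 and Pnpla1 at 895 FPKM in WT replicate 1. The bound on 2 WT libraries keeps such rows out.

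Features that the rule did not use are given beside those of other rows, with no test. The longest annotated transcript had a median of 3772 nucleotides, from 2130 for Alg12 to 14847 for Akap6, against 3720 in the 24 rows of similar WT level and 3295 in all 422 other protein-coding rows. Median GC content of that transcript was 49.3%, against 48.4% and 48.5%. The interval took in another protein-coding gene for 2 of the 30 (6.67%), Prdm16 and D230025D16Rik, against 8.33% and 16.8%. No transcript of another gene aligned to any of the 30 with at least 95% identity over at least 300 bases, so none had a near-identical copy by that measure. They lay on 16 chromosomes, with 4 on chromosome 5 and Prdm16 as the only one on chromosome 4. Transcript models assembled from the reads were part of 17 rows (56.7%), against 58.3% and 60.9%.

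By the table's own annotation of cell component, given for 28 of the 30, the nucleus was named for 4 (14.3%): Prdm16, Helz, Pwp1 and Rab31. It was named for 20.8% of the 24 rows of similar WT level and for 30.7% of 411 other annotated rows. Integral membrane proteins made up 6 (21.4%), against 20.8% and 16.1%, and the mitochondrion was named for 3, Pdp2, Mmab and Keg1 (10.7%), against 8.33% and 9.73%. These shares are descriptions of a short list and carry no test.

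None of the 30 was on any of 8 lists of oocyte, somatic cell, cytokine, MTORC1 pathway or cell cycle genes, 170 symbols in all. That was partly set in advance, since Plek, on the blood and immune list, met the bounds and was left out by name. Depdc5, on the MTORC1 list, was also left out by name but did not meet the bounds. Of 16 oocyte markers the table holds 2, Zp2 of the egg coat and Nlrp5 of the subcortical complex, whose summed FPKM was 234 to 253 in Mtor CKO and 450 to 906 in WT. Of 16 cumulus and granulosa markers 2 were present, Mro and Vcan, with summed FPKM of 1.68 to 3.15 in Mtor CKO and 4.50 to 9.86 in WT, and Vcan was listed at 0 in each Mtor CKO library and in WT replicate 3. Of 15 blood and immune markers the one present was Plek, at 0.447 to 0.805 FPKM in Mtor CKO and 1.14 to 36.7 FPKM in WT. Of 25 chemokines and cytokines the one present was Ccl2, at 1.59, 0.249 and 1.84 FPKM in Mtor CKO and 12.9, 4.03 and 5.62 FPKM in WT. Krt7, the one of 10 oviduct epithelium markers present, was at 4.23 to 10.1 FPKM in Mtor CKO and 2.45 to 4.40 FPKM in WT. Of 9 fibroblast and endothelium markers 0 were in the table, and markers that are not in it have no value here. The part of other cells in the levels of the 30 was not tested. The 5 of 38 cell cycle and spindle genes in the table had a summed FPKM of 229.9 to 327 in Mtor CKO and 465 to 834 in WT. Of 41 MTORC1 pathway genes the table holds Depdc5, at 0.0702 to 0.210 FPKM in Mtor CKO and 0.123 to 3.70 FPKM in WT, and Mtor itself was not analysed here, so the deletion has no check from its own transcript.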

How the data were processed

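The 6 libraries were made with a SMARTer kit and 17 PCR cycles, per the labels' protocols. Per the submitters' processing notes, TopHat2 2.0.8b, Cufflinks 2.1.1, Cuffdiff and mm10 were used. The deposited table gives FPKM for single libraries and for groups, and the authors' log2 fold change, p-value and q-value for 516 selected rows. Low FPKM values showed no common step, so depth and counting error are unknown.

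Limma 3.58.1 (R 4.3.3, empirical Bayes with trend) was fitted to log2(FPKM + 1), with Benjamini-Hochberg adjustment over all rows tested and a threshold of 0.05. It was also run on simulated data. The simulated rows were not selected for a difference, so that run cannot vouch for calls on the selected rows used here. Alternatives were a pseudocount of 0.1, other filters, median scaling, a replicate block, leaving out each library, and other bounds in the rule. Starts in the file count from 0 and were moved to 1-based. Lengths, GC and overlaps came from GENCODE M21, and copies from BLAST+ 2.17.0. Members, lists and functional classes were chosen with earlier results of these data known. The rule for named genes allows every member to be named.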

Additional observations from a re-analysis of the deposited data

How the results depend on the processing

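The number of rows meeting the rule was 30 and stayed 30 without the upper bound on the WT mean. It was 7 with a bound of 0.5 FPKM in Mtor CKO, 89 with 2 FPKM, 11 when all 3 WT libraries had to reach 1 FPKM, 8 with libraries scaled to a common median, and 7 when the q-value that the authors' deposited table gives also had to be 0.05 or less (an alternative chosen after seeing the data). Leaving out 1 library gave 12 to 47 rows: the highest count came without Mtor CKO replicate 2, the lowest without WT replicate 2, and 15 rows were left without WT replicate 3. The counts fall without a WT library by construction, since both remaining ones must then reach 1 FPKM. Without an Mtor CKO library they cannot fall, since fewer values must then lie below 1 FPKM. They were 37, 47 and 38 without Mtor CKO replicates 1, 2 and 3.

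With libraries scaled to a common median, the median WT FPKM of the 30 was 1.28 in place of 1.67, and 4 rather than 11 had all WT libraries at 1 FPKM or more. On selected rows that scaling takes out a difference shared by most of them by construction. Limma called 347 rows as fitted, 91 after that scaling (3 lower and 88 higher, against 284 and 63), and 3 to 383 when 1 library was left out. Of the 30 it called 11 of the 11 tested as fitted, 18 of 30 with no filter on low values (when it called 262 of all 516 rows lower), 22 of 30 with at least 1 FPKM in at least 2 libraries (294 of 498 rows lower), 0 of 14 after scaling, and 0 to 11 with 1 library left out; without a WT library none of the 30 passed the filter. With the replicate number as a block limma called 405 rows and 11 of the 30. Deviations of same-numbered libraries correlated at 0.115, 0.240 and 0.0843. Those of differently numbered libraries ran from -0.218 to 0.118, and only Mtor CKO replicate 1 with WT replicate 3 was above 0. Whether the numbers pair the libraries is not settled by these values, and the main fit did not use them. Log2 differences of the 11 kept their sign in every setting in which they were tested, but their size moved. Apart from the scaled setting, that sign was fixed in advance and shows nothing. Each of the 11 had every WT library at 1 FPKM or more and every Mtor CKO library below 1 FPKM. After scaling, Gabrp, Mmab, Pde8b and Tnfrsf21 did not pass the filter, and the other 7 lay between -0.70 (Tut1) and -0.29 (Myo1e, from -0.69); Mark3 went from -0.94 to -0.49 and F13a1 from -1.04 to -0.61. A pseudocount of 0.1 gave larger differences, such as -2.83 in place of -1.30 for Tnfrsf21. The cause of these dependences was not tested. Read depth is unknown, which limits any statement on single low values.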
